A study of Mus musculus with 12 samples.

Results

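CD34+ sorted cells were compared with unsorted bone marrow (BM) cells, both carrying a control virus, on 6 Illumina BeadChip arrays. The series holds 12 arrays of 45281 probes, hybridised with mouse RNA from cells of a conditional Bcor strain. Probes were taken where the detection p-value was under 0.05 on at least 3 of the 6 arrays, which left 17174 probes and 9333 named genes, each gene read by its brightest probe. All 6 samples came from marrow of 3-month-old animals of genotype Bcor Fl/Y, in which loxP sites flank exons 9 and 10 of Bcor, a Polycomb corepressor gene. All were purified over Ficoll, transduced with an empty retrovirus, selected with puromycin and cultured in medium with 20% serum, SCF at 50 ng/ml, IL-6 at 25 ng/ml and IL-3 at 10 ng/ml. No Cre virus was given to either group. In the CD34+ group, cells were sorted for CD34 by flow cytometry. It holds marrow number 2, measured on 2 repeats, and marrow number 4, measured on 1 array, so its 3 arrays stand for 2 marrows. The BM group holds repeats 1 to 3 of unsorted cells, and whether they came from separate animals is not stated in the labels, so p-values measure only the spread between these arrays, which may be technical. The 6 arrays with a Cre retrovirus, in the same populations, entered the fit of the spread and 1 comparison at the end.

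CD34 is a sialomucin on haematopoietic stem and progenitor cells. Mast cells of the mouse carry it too. Marrow kept in IL-3 and SCF gives rise to mast cells, which store proteases, histamine and serotonin in granules and carry the high-affinity receptor for IgE, built from an alpha, a beta and a gamma chain. The same marrow also holds precursors of neutrophils, eosinophils, monocytes and platelets. Each of these lineages switches on granule or surface genes late in its maturation, and those genes served as markers here.

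The sort marker itself did not separate the groups. Cd34 was detected on all 6 arrays by 1 kept probe, with log2 normalised intensities of 10.41, 10.04 and 10.32 on the CD34+ arrays, in the order marrow number 2 repeat 1, marrow number 2 repeat 2 and marrow number 4, and of 10.29, 10.22 and 9.996 on BM repeats 1, 2 and 3. All per-array values below are on this scale and in this order. The groups overlapped, and the difference, CD34+ minus BM, was 0.09 ± 0.25 (log2 ± SE from the limma fit, 3 arrays against 3), with an adjusted p of 0.815. Every adjusted p below comes from limma's moderated test with Benjamini-Hochberg adjustment over the 9333 genes, and a gene was called at an adjusted p under 0.05. Among other progenitor markers, Flt3 was not detected on enough arrays to be tested. Kit, the SCF receptor, read 14.83, 14.87 and 15.28 on the CD34+ arrays and 15.04, 15.40 and 15.48 on the BM arrays. Its difference was -0.31 ± 0.22 with an adjusted p of 0.275. On the arrays with the Cre virus, Cd34 was higher in CD34+ than in BM cells, by 1.02 ± 0.25 (adjusted p = 0.00556). The difference between the viruses was not called (adjusted p = 0.223). "CD34+" therefore names the sort that the labels report, and not a difference in Cd34 RNA with the control virus. Bcor, the floxed gene, differed by 0.05 ± 0.24, with an adjusted p of 0.884.

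Across all genes the populations stood far apart. In CD34+ cells 2041 of the 9333 genes were higher (21.9%) and 1779 were lower (19.1%), so that 40.9% were called in all. Of these, 775 were higher and 1031 lower by at least 2-fold, and 23 were higher and 73 lower by at least 8-fold. All 3 CD34+ arrays lay above all 3 BM arrays for 2922 genes (31.3%) and below them for 2349 (25.2%). The median difference over all genes was 0.09. Correlations over genes were 0.994 between the repeats of marrow number 2, 0.968 to 0.969 between marrows number 2 and 4, 0.988 to 0.990 among the BM arrays and 0.902 to 0.924 across populations. The CD34+ arrays detected 15797 to 16316 probes and the BM arrays 16985 to 17153. The file headers give no slide or date, so the sort cannot be told apart from anything else that the arrays of 1 population share.

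**Figure D1:**
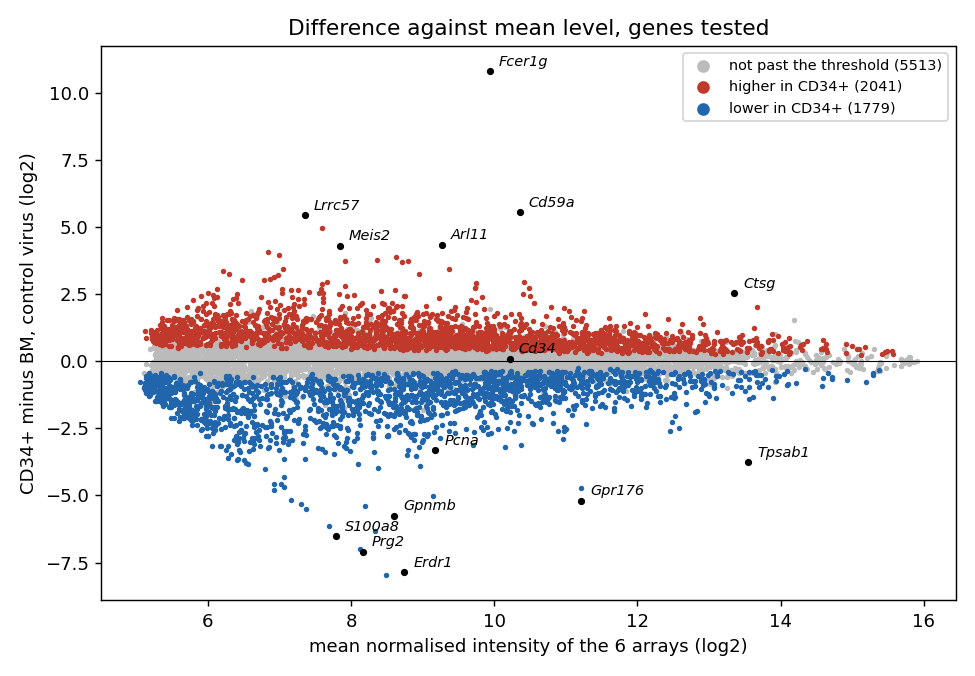
Each point is a gene, with its mean log2 normalised intensity over the 6 arrays on the horizontal axis and CD34+ minus BM (log2) on the vertical axis. Colours mark the 2041 genes called higher, the 1779 called lower and the 5513 not called; Fcer1g, undetected in BM, lies at the top and Cd34 near 0.

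One measurement bears on every gene below. Among genes with several kept probes, 1505 were called through their brightest probe when all probes were tested together, and in 265 of them (17.6%) another probe of the same gene was called in the opposite direction. In 938 (62.3%) all probes had the same sign, and in 532 (35.3%) all were called the same way. The same count for Cre against control virus within BM cells was 1 of 515 genes with an opposite call (0.194%) and 95.5% with the same sign in all probes. Between the populations with the Cre virus, 294 of 1799 genes (16.3%) had an opposite call. Probes of 1 gene thus disagreed between the populations and hardly at all between the viruses; the cause was not tested. The number of probes is therefore given for some genes below, not all, and a gene read by 1 probe has no such check. Among genes given without it, Ctsg, Tpsab1, Slc18a2, Il6, Fli1, Meis2, Jun, Cdkn2b, Zbp1, Bst2 and Gpr176 had 1 kept probe. The second probes of Atf4 (-0.47) and Hdc (-0.50) were not called, and 1 of the 2 Fcer1a probes was called.

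**Figure D2:**
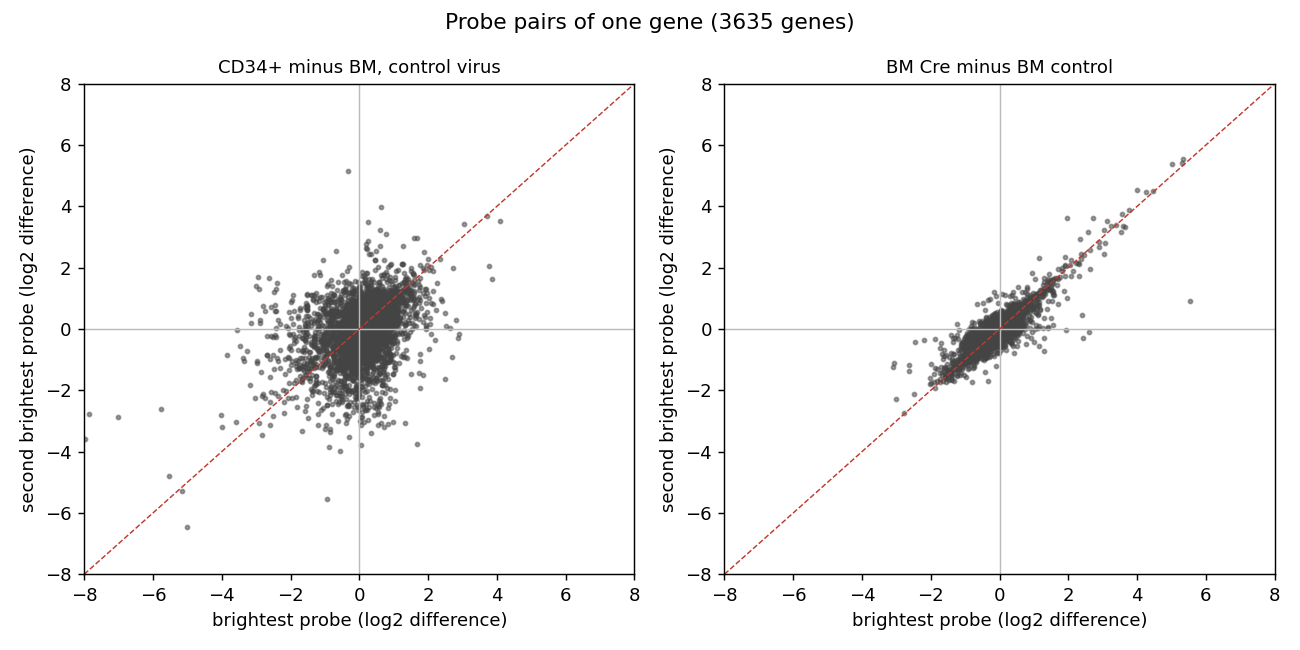
Each point is 1 of 3635 genes with several kept probes, with the log2 difference of its brightest probe on the horizontal axis and of its second brightest on the vertical axis. On the left (CD34+ minus BM, control virus) points spread into all quadrants; on the right (BM Cre minus BM control) they follow the dashed line of equality.

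The gamma chain of the IgE receptor gave the single largest difference. Fcer1g, which encodes this signalling chain shared by several Fc receptors, read 15.38, 15.32 and 15.29 on the CD34+ arrays and 4.52, 4.52 and 4.56 on the BM arrays. Its only kept probe was near the top of the scale on every CD34+ array and not well above background on any BM array. It was at least 1026-fold higher in CD34+ cells, a bound (adjusted p = 1.41e-13). Bounds of this kind set the mean of the bright group against the lowest signal detected on each array of the other, or the probe itself where that was higher. The partner chains showed no such gap. Signals of the alpha chain lay near the upper end of the scale, where differences are compressed, so the size of its difference is uncertain. The alpha chain Fcer1a read 15.75, 15.66 and 15.63 on the CD34+ arrays and 15.35, 15.19 and 15.33 on the BM arrays, higher in CD34+ cells by 0.39 ± 0.08, and the beta chain Ms4a2 read 12.33, 12.27 and 12.51 on the CD34+ arrays and 13.74, 13.51 and 13.53 on the BM arrays, lower by 1.23 ± 0.15 (adjusted p = 8.98e-05). Both partners were thus bright in BM cells, whose Fcer1g probe was dark. With the Cre virus, too, the Fcer1g probe was detected on all 3 CD34+ arrays and on no BM array.

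Some mast cell genes, not all, were among the brightest on the arrays in both populations. The granule protease Gzmb read only 5.76, 6.39 and 6.63 on the CD34+ arrays. It was detected on no BM array and so could only be higher in CD34+ cells. Mcpt2, Mcpt9, Mrgprb1 and Enpp3 were detected on no array of either group. Carboxypeptidase A3 (Cpa3) read 15.73, 15.71 and 15.66 on the CD34+ arrays and 15.76, 15.73 and 15.76 on the BM arrays, and the chymase Cma1 read 15.78, 15.76 and 15.65 on the CD34+ arrays and 15.87, 15.84 and 15.82 on the BM arrays; neither was called, with adjusted p of 0.56 and 0.224. These signals lie near the upper end of the scale, where differences are compressed. Of 11 tested granule protease genes 3 were higher and 2 lower, and of 23 receptors and regulators 6 were higher and 6 lower, shares not far from the 21.9% and 19.1% of all genes. Only 1 granule protease gene was called lower on leaving out marrow number 4 or any 1 of the BM arrays, and the receptors called lower were 3 under median scaling and 10 with the mean over probes. Within these lists the members went separate ways. Cathepsin G (Ctsg), a protease of mast cells and neutrophil precursors, read 14.79, 15.03 and 14.02 on the CD34+ arrays and 12.60, 11.76 and 11.93 on the BM arrays, a 5.73-fold higher level in CD34+ cells (2.52 ± 0.25, adjusted p = 1.68e-05). The tryptase Tpsab1 read 11.31, 11.32 and 12.37 on the CD34+ arrays and 14.84, 15.82 and 15.65 on the BM arrays, 13.6-fold lower (adjusted p = 0.000581), with no overlap between groups, while its close relative Tpsb2 read 15.73, 15.61 and 15.54 on the CD34+ arrays and 14.69, 15.64 and 15.67 on the BM arrays and was not called (adjusted p = 0.567). Tryptase and chymase genes have near-identical copies, and cross-hybridisation between them is uncertain here. The BM signals of Tpsab1 also lie near the upper end of the scale, so the size of its difference is uncertain. Milr1, an inhibitory receptor of mast cells, was higher by 2.15 ± 0.30 with its 2 probes called the same way. Gata2, a transcription factor of progenitors and mast cells, read 14.18, 13.99 and 14.19 on the CD34+ arrays and 15.06, 14.88 and 15.18 on the BM arrays, lower by 0.92 ± 0.12 (adjusted p = 9.11e-05), a call that ended under median scaling, where the difference was -0.22.

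Most tested genes for amine mediators were called lower in CD34+ cells: 4 of 6 members of the serotonin and histamine list (66.7% against 19.1% of all genes) and none higher, and the median difference was -1.05 against 0.09 over all genes. Slc18a2, the vesicular transporter that loads amines into granules, read 11.18, 11.17 and 11.69 on the CD34+ arrays and 13.75, 13.42 and 13.69 on the BM arrays. All 3 CD34+ arrays lay below all BM arrays, a 4.82-fold difference (adjusted p = 3.7e-05). Ddc, the decarboxylase that completes serotonin synthesis, read 11.25, 11.16 and 11.57 on the CD34+ arrays and 13.65, 13.89 and 13.91 on the BM arrays and was 5.62-fold lower (adjusted p = 0.000586); its other 2 kept probes, at -1.46 and -1.32, were not called. For Hdc, which makes histamine, the call at -1.07 ± 0.35 was lost on leaving out any of 5 arrays, all but marrow number 4. For Tph1, the first enzyme of serotonin synthesis, the call at -0.33 ± 0.12 was lost on leaving out any 1 of those 5, and median scaling turned the difference to 0.57. So 2 of the 6 were called on leaving out any 1 of those 5 arrays, with repeats averaged, with the marrow as a random block and in the authors' table. That block joined only the repeats of marrow number 2 with the same virus.

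Cytokine genes went both ways. Il6, a cytokine also present in the medium, read 8.79, 8.94 and 9.49 on the CD34+ arrays and 11.36, 11.41 and 11.28 on the BM arrays and was 4.85-fold lower in CD34+ cells (adjusted p = 3.36e-05), without overlap. The chemokine Ccl9 read 9.02, 8.90 and 10.21 on the CD34+ arrays and 10.89, 12.26 and 11.94 on the BM arrays, 5.01-fold lower (adjusted p = 0.0014). Il1b, an inflammatory cytokine, was higher at 8.14, 8.19 and 9.81 on the CD34+ arrays and 5.88, 6.33 and 6.17 on the BM arrays (2.59 ± 0.51, adjusted p = 0.00181), with marrow number 4 the highest.

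Eosinophil granule genes were near background in CD34+ cells and well above it in BM cells. Prg2, the major basic protein of eosinophil granules, read 4.54, 4.62 and 4.68 on the CD34+ arrays and 13.35, 11.43 and 10.34 on the BM arrays, and its probe was detected on no CD34+ array. It was at least 73.3-fold higher in BM cells (adjusted p = 3.31e-06). Epx, eosinophil peroxidase, read 4.84, 4.84 and 4.81 on the CD34+ arrays and 8.41, 7.06 and 5.99 on the BM arrays, at least 3.13-fold higher in BM (adjusted p = 0.0014). The eosinophil ribonucleases Ear6 and Ear10, which belong to a family of near-identical copies, were at least 13.9-fold and 6.64-fold higher in BM, and Prg3, a relative of Prg2, at least 2.19-fold. The remaining tested member, the IL-5 receptor Il5ra, read 5.76, 6.31 and 5.55 on the CD34+ arrays and 6.73, 5.85 and 6.90 on the BM arrays with overlapping groups, and was not called (adjusted p = 0.169). Of 13 listed genes 6 passed the detection filter; the 5 that differed passed only through the BM arrays and so could only differ in this direction. Each of the 5 was read by 1 probe. All 5 were highest on BM repeat 1 and lowest on BM repeat 3. The summed normalised intensity of the 6 genes was 173 to 209.7 on the CD34+ arrays and 1875 to 14093 on the BM arrays. In bulk RNA, fewer cells of a type and less RNA per cell cannot be told apart, here or for the lineages below.

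**Figure D3:**
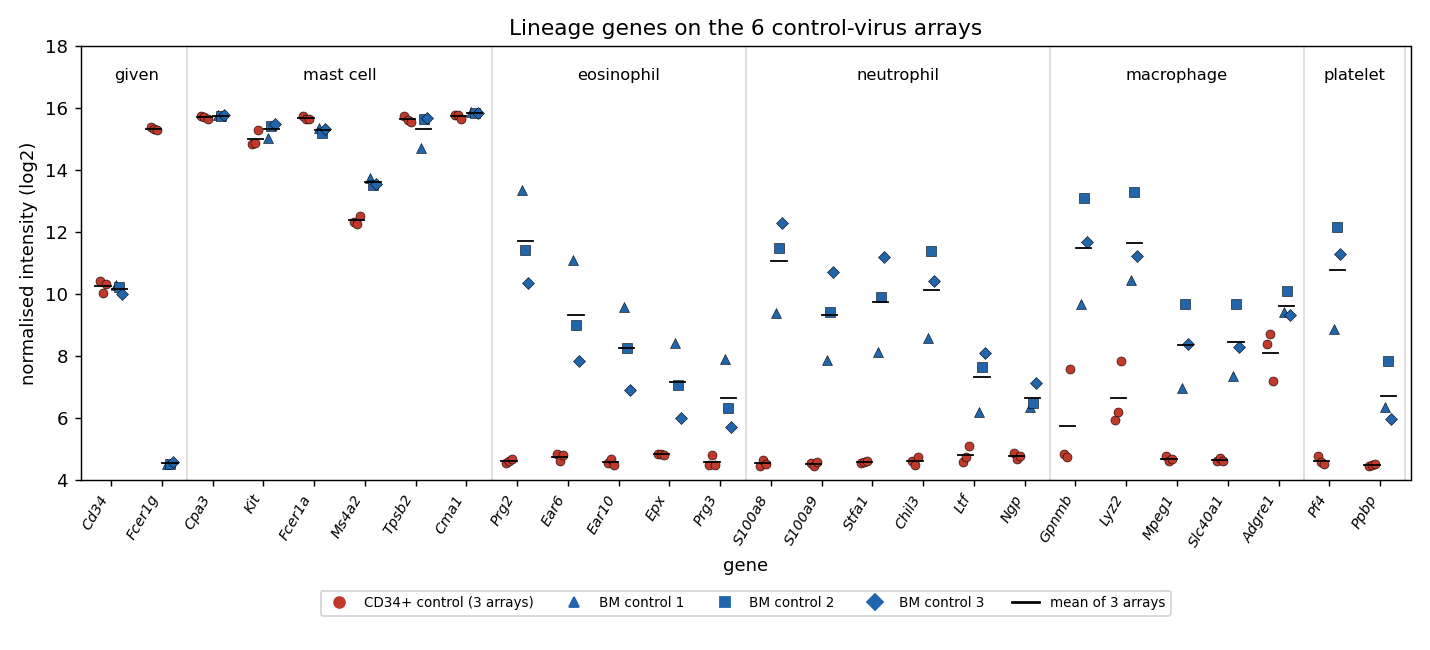
Log2 normalised intensity (vertical axis) of lineage genes on the 3 CD34+ control arrays (red) and BM control repeats 1 to 3 (blue, a shape each); lines are means of 3 arrays. The mast cell genes drawn lie high in both groups, and dim ones such as Gzmb are not drawn. The eosinophil, neutrophil, macrophage and platelet genes drawn are lower on the CD34+ arrays. Listed members called higher are not drawn: Cyba and Il1b (neutrophil), Tyrobp and Clec4e (macrophage), and Gp9, Vwf and P2rx1 (platelet). BM repeats 1, 2 and 3 keep a fixed order within the eosinophil genes.

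Genes of late neutrophil maturation showed the same contrast with another order of the BM arrays. S100a8, a subunit of calprotectin, read 4.44, 4.65 and 4.50 on the CD34+ arrays and 9.39, 11.47 and 12.30 on the BM arrays, and S100a9, its partner, read 4.54, 4.44 and 4.58 on the CD34+ arrays and 7.86, 9.41 and 10.69 on the BM arrays. Neither was detected on any CD34+ array, and they were at least 46.6-fold and 14.04-fold higher in BM (adjusted p = 9.13e-06 and 2.83e-05). Stfa1, a cysteine protease inhibitor, was at least 18.8-fold higher in BM with both probes called. Chil3, a chitinase-like secreted protein, was at least 24.6-fold higher with 3 probes called, and the antiprotease Slpi at least 63.3-fold by 1 probe. On the BM arrays lactoferrin (Ltf) read 6.19, 7.65 and 8.08 and Ngp 6.33, 6.48 and 7.14, and both were undetected in CD34+ cells. Of 37 listed genes 20 were tested. In CD34+ cells 12 were lower (60% against 19.1% of all genes) and 2 higher (10% against 21.9%). All 12 lower ones had passed the filter through the BM arrays alone and so could only differ in this direction. The 2 higher ones were Cyba, a subunit of the NADPH oxidase (1.00 ± 0.12, adjusted p = 7.85e-05), and Il1b. Of the 12 lower genes, 10 were highest on BM repeat 3 and 11 were lowest on BM repeat 1. The summed intensity of the list did not separate the groups (34396 to 38570 on CD34+ and 22852 to 35998 on BM arrays), bright members such as Cyba included; the median member was 4.78 to 4.92 against 7.73 to 8.45 (log2).

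C/EBP transcription factors are known to drive late granule genes, and the promoters of these genes were searched for a C/EBP core, TTGCNNAA, on both strands; lists and motif were chosen with the results known. Of the 12 lower genes 7 hold it within the RefSeq promoter window (GRCm38.p6, 250 bases before to 50 after the start). It is held by 7 of the 18 tested list members that have a promoter, and by 12.2% of the 27025 genes that have one. This is a description with no test, and a match is not a binding site. S100a8 and Chil3 are not among the 7. Promoter stretches that hold the match are shown for 4 of the 7 genes. They run 5′ to 3′ on the strand of the gene with the match in capitals.
S100a9, chr3:90695920-90695971, minus strand: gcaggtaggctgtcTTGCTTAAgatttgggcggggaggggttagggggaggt
Stfa1, chr16:36277009-36277076, plus strand: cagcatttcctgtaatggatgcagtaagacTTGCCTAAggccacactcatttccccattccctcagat
Ltf, chr9:111019187-111019254, plus strand: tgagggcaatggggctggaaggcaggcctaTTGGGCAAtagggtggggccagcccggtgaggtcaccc
Ngp, chr9:110419767-110419807, plus strand: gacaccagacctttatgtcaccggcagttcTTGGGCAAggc
Among the factors themselves, Cebpa and Cebpe were not detected on enough arrays to be tested, and Cebpb, an activator in myeloid cells, read 11.50, 11.35 and 12.13 on the CD34+ arrays and 10.96, 11.94 and 11.53 on the BM arrays and was not called (adjusted p = 0.638). Granule genes of earlier neutrophil precursors went both ways, with 7 tested. Lyz1, Lyz2, Ms4a3 and Gstm1 were lower (57.1% against 19.1% of all genes). Of these, Ms4a3 passed the filter through the BM arrays alone and so could only be lower. Mpo and Elane did not pass the filter. Ctsg and the membrane protein Cd63 were higher (28.6% against 21.9%). Leaving out any 1 of the 6 arrays left 1 of these higher calls. Gfi1, a repressor needed for neutrophil formation, was higher in CD34+ cells at 10.55, 10.60 and 10.22 on the CD34+ arrays and 9.49, 9.51 and 9.43 on the BM arrays (0.98 ± 0.17, adjusted p = 0.000736).

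Macrophage genes were lower in CD34+ cells, with BM repeat 2 on top. Gpnmb, a glycoprotein of macrophage lysosomes, read 4.84, 4.74 and 7.58 on the CD34+ arrays and 9.68, 13.09 and 11.68 on the BM arrays. Its level on marrow number 4 exceeded that of marrow number 2 but stayed below every BM array, and it was the only CD34+ array on which the probe was detected, so no fold is given (adjusted p = 0.00429); its second probe was lower by 2.61. Lysozyme 2 (Lyz2), which has a near-identical copy in Lyz1, read 5.93, 6.17 and 7.83 on the CD34+ arrays and 10.43, 13.28 and 11.22 on the BM arrays, 32.1-fold lower in CD34+ cells by 2 probes called the same way (adjusted p = 0.000465). Mpeg1, a pore-forming protein of macrophages, was at least 7.12-fold higher in BM, the iron exporter Slc40a1 at least 7.61-fold, and the mannose receptor Mrc1, at 6.31, 9.57 and 8.38 in BM, was undetected in CD34+ cells. Csf1r, the receptor for M-CSF, read 5.26, 5.48 and 5.54 on the CD34+ arrays and 6.09, 8.29 and 6.99 on the BM arrays and was detected on 1 of the 3 CD34+ arrays (adjusted p = 0.0127). Of 41 listed genes 25 were tested. Of these, 16 were lower (64% against 19.1% of all genes) and 2 higher (8% against 21.9%). In the list 10 of the 25 passed the filter through BM arrays alone and so could only differ in this direction. The higher ones were Tyrobp, a signalling adaptor, at 0.87 ± 0.31 (adjusted p = 0.0402) and the lectin receptor Clec4e at 1.72 ± 0.40 (adjusted p = 0.00514); 1 of the 2 was called on leaving out either repeat of marrow number 2 or BM repeat 2 or 3. Of the 16 lower genes 14 were highest on BM repeat 2. Summed intensity was 27594 to 30207 on the CD34+ arrays and 47999 to 72284 on the BM arrays. Lipoprotein lipase (Lpl), at least 21.8-fold higher in BM, had the same order of BM arrays (8.06, 11.24 and 10.57).

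Platelet genes divided. Pf4, a platelet chemokine, read 4.76, 4.58 and 4.51 on the CD34+ arrays and 8.86, 12.15 and 11.29 on the BM arrays, at least 38.2-fold higher in BM (adjusted p = 1.95e-05), with the highest value again on BM repeat 2. Rgs18, a regulator of G protein signalling in platelets, read 7.21, 7.24 and 7.61 on the CD34+ arrays and 10.57, 10.33 and 10.70 on the BM arrays and was 9.07-fold lower in CD34+ cells by 2 probes (adjusted p = 1.09e-06). In the other direction, von Willebrand factor (Vwf) was higher by 1.06 ± 0.29 and the ATP-gated channel P2rx1 by 1.41 ± 0.32, with adjusted p of 0.0112 and 0.00394. In all 5 of 13 tested members were lower (38.5% against 19.1% of all genes) and 3 higher (23.1%, near the 21.9% of all genes). In this list 3 of the 13 passed the filter through BM arrays alone and so could only be lower in CD34+ cells. Among 13 erythroid genes tested, 1 was called: Fech, the last enzyme of haem synthesis, whose call was lost on leaving out any 1 of the 6 arrays. Few lymphoid genes were measured: 2 B cell members and 5 T or NK cell members were tested, and limma called none of them, with 1 and 2 at an unadjusted p under 0.05.

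For several of these markers the authors' deposited value table holds 24, its lowest value, in both groups, and so gives no call: Prg2, Prg3, Epx, Ear6, Ear10, S100a8, S100a9, Stfa1, Chil3, Ltf, Ngp, Mpeg1, Slc40a1, Lpl and Pf4. In the authors' deposited table Gpnmb stood at a log2 difference of 0.87 and Slpi at 0.06, neither called. The scanner signals used here place these genes above background on all 3 BM arrays.

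Progenitor transcription factors gave no single direction. Of 22 stem and progenitor genes tested 2 were higher (9.09%, against 21.9% of all genes) and 4 lower (18.2%, against 19.1%), and of 34 myeloid transcription factors 5 were higher and 6 lower. Without marrow number 4 the higher ones were 4 and 8, and without BM repeat 1 or 3 the lower stem and progenitor genes were 2. Lmo2, a blood-forming cofactor, was higher in CD34+ cells at 11.58, 11.64 and 11.34 on the CD34+ arrays and 11.17, 10.67 and 10.72 on the BM arrays (adjusted p = 0.00979), a call lost in the authors' deposited table at 0.52. Fli1, an ETS factor, read 8.03, 8.19 and 8.39 on the CD34+ arrays and 9.89, 9.60 and 9.74 on the BM arrays, 2.91-fold lower (adjusted p = 7.21e-05). Id2, an inhibitor of E-protein factors, was 3.05-fold lower by 3 probes called the same way, at 12.002, 12.09 and 11.52 on the CD34+ arrays and 13.33, 13.55 and 13.57 on the BM arrays. Klf6, a zinc finger factor, was 3.04-fold higher (adjusted p = 0.00094), its second probe at 0.53 not called.

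Meis2, a homeodomain cofactor of Hox proteins, was among the genes with the largest gain. It read 10.57, 10.58 and 8.81 on the CD34+ arrays and 6.08, 5.28 and 5.72 on the BM arrays (adjusted p = 0.00104), was detected on 2 of the 3 BM arrays, and marrow number 4 lay nearer to BM than marrow number 2 did. In the list of other Hox genes and cofactors 4 of 8 tested members were higher (50.0% against 21.9% of all genes) and none lower; 2 were higher with the marrow as a random block and 2 in the authors' table. Pknox1, another cofactor, was 2.34-fold higher (adjusted p = 0.000168), though its second probe stood at -0.12. Of the Hoxa cluster only Hoxa13, a posterior homeobox gene, passed the filter, at 6.77, 7.32 and 6.36 on the CD34+ arrays and 5.45, 5.51 and 5.51 on the BM arrays (1.32 ± 0.22, adjusted p = 0.000562).

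The interferon-stimulated genes that could be tested leaned upward in CD34+ cells. Of 40 listed genes 38 were on the array and 24 were tested. Among those left out, Ifit1, Ifit3, Mx1, Mx2, Oas1a, Oas2 and Oas3 were detected on no array of either group. Of the 24 tested 9 were higher, or 37.5% against 21.9% of all genes, and 1 was lower (4.17% against 19.1%). The median difference was 0.42. Ifi27, an interferon-induced protein of mitochondria, read 13.10, 13.08 and 13.49 on the CD34+ arrays and 11.71, 11.59 and 11.62 on the BM arrays and was 2.99-fold higher by 2 probes (adjusted p = 0.00189). Zbp1, a sensor of Z-form nucleic acids, read 7.15, 7.02 and 7.29 on the CD34+ arrays and 5.65, 5.94 and 6.03 on the BM arrays (1.28 ± 0.16, adjusted p = 9.84e-05). Bst2, or tetherin, which holds budding viruses at the membrane, read 9.70, 9.91 and 9.04 on the CD34+ arrays and 8.19, 8.32 and 7.81 on the BM arrays, 2.72-fold higher (adjusted p = 0.00167). In none of these did the groups overlap. Rsad2, or viperin, an antiviral enzyme, read 8.06, 8.35 and 9.11 on the CD34+ arrays and 6.32, 6.12 and 6.11 on the BM arrays, highest on marrow number 4 (adjusted p = 0.024), and the ubiquitin-like modifier Isg15 read 6.99, 7.08 and 7.19 on the CD34+ arrays and 5.87, 5.92 and 5.52 on the BM arrays (adjusted p = 0.00702); both are named for their promoters, after their values were seen. The member that was lower was Ifit2, an RNA-binding antiviral protein, detected on 2 of the 3 CD34+ arrays (adjusted p = 0.0196). Both groups carried a retrovirus and puromycin selection. Under the alternatives the number of higher members ranged from 4 in the authors' table to 12 with the 6 control arrays fitted alone, and from 6 to 8 on leaving out 1 array.

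The interferon-stimulated response element is the site through which the ISGF3 complex acts. Its core was searched as GAAA, any 2 bases, GAAA, on both strands, in the same promoter windows. It is held by 4 of the 6 higher genes that have a promoter in the table and by 3.99% of the 27025 genes that have one. Of the 19 tested list members with a promoter, whichever way they were called, 10 hold it. The 4 stretches are shown because they hold the match, which is in capitals and in either orientation (GRCm38.p6, 5′ to 3′ on the strand of the gene). Ifi27 and Zbp1 are not among the 4 genes, and Isg15 and Rsad2 were not called in the authors' table.
Isg15, chr4:156200845-156200914, minus strand: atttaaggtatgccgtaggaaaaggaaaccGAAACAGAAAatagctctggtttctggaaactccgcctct
Rsad2, chr12:26456533-26456602, minus strand: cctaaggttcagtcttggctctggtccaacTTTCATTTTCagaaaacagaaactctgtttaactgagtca
Bst2, chr8:71537557-71537626, minus strand: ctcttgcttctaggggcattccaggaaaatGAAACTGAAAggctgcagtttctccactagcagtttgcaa
Gbp3, chr3:142559975-142560043, plus strand: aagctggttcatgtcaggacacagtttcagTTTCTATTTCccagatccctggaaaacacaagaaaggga
Gbp3, an interferon-induced GTPase, read 6.42, 7.01 and 6.44 on the CD34+ arrays and 5.58, 5.52 and 5.64 on the BM arrays, a 2.06-fold higher level (adjusted p = 0.00379); its second probe, at 0.54, was not called, and the call ended with the marrow as a random block. The match is a description and was not tested.

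Receptors and signalling genes of the culture cytokines went both ways. Of 25 cytokine receptor genes tested 2 were higher (8% against 21.9% of all genes; 1 without BM repeat 1) and 4 lower (16% against 19.1%). The IL-3 receptor alpha chain Il3ra was higher in CD34+ cells (adjusted p = 0.0109). It read 10.51, 10.41 and 10.47 on the CD34+ arrays and 9.18, 9.43 and 9.98 on the BM arrays. Csf2rb2, a beta chain of the mouse IL-3 receptor, was 1.68-fold lower (adjusted p = 0.00277), a call lost under median scaling (-0.20). It read 13.47, 13.54 and 13.69 on the CD34+ arrays and 14.25, 14.31 and 14.38 on the BM arrays. The other beta chain, Csf2rb, was tested by 3 kept probes and its gene was not called. Il4ra, the IL-4 receptor, was 3.69-fold lower (adjusted p = 0.000411). Il10rb was lower by 1.52 ± 0.19 through its brightest probe and higher by 1.15 through the other, both called. Of 22 JAK-STAT genes 5 were lower (22.7%, near the 19.1% of all genes) and 1 higher; the lower ones were 2 without BM repeat 1 and 3 on leaving out BM repeat 3 or any 1 of the CD34+ arrays. Jak1, the kinase of many cytokine receptors, read 6.32, 6.64 and 8.16 on the CD34+ arrays and 10.43, 10.61 and 10.54 on the BM arrays by 1 probe, 11.2-fold lower (adjusted p = 3.06e-05). Socs6, a feedback inhibitor, was 3.12-fold lower by 2 probes (adjusted p = 1.66e-05). Immediate early and ERK feedback genes were called higher in 3 of 23 (13.04% against 21.9%) and lower in none, with 8 higher when the 6 control arrays were fitted alone. Jun, a subunit of AP-1, read 10.93, 11.03 and 9.27 on the CD34+ arrays and 8.14, 8.15 and 7.88 on the BM arrays, 5.11-fold higher (adjusted p = 0.000856), and the phosphatases Dusp5 and Dusp2 were 3.11-fold and 4.75-fold higher.

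Cell cycle genes, where called, were mostly lower in CD34+ cells. Of 40 replication genes 8 were lower, a share of 20.0% near the 19.1% of all genes, and none was higher against 21.9% of all genes. Pcna, the sliding clamp of DNA polymerase, read 7.75, 7.18 and 7.62 on the CD34+ arrays and 10.79, 10.78 and 10.93 on the BM arrays, 9.95-fold lower by 1 probe (adjusted p = 1.35e-06). Prim1, a primase subunit, was detected on the BM arrays alone, and Mcm6, part of the replicative helicase, was 3.21-fold lower (adjusted p = 0.00432), with 2 of its other 3 probes also called lower. Of 26 mitosis genes 6 were lower (23.1%, near the 19.1% of all genes) and 1 higher (3.85% against 21.9%). In the mitosis list 3 of the 26 passed the filter through BM arrays alone, as did 1 of the 40 replication genes. Those genes could only be lower in CD34+ cells. Cyclin A2 (Ccna2) read 5.19, 4.79 and 4.67 on the CD34+ arrays and 7.22, 6.86 and 7.10 on the BM arrays, at least 2.93-fold higher in BM (adjusted p = 4.74e-05), and the spindle checkpoint kinase Ttk at least 2.81-fold; Ttk and Prim1 are at 24 in both groups in the authors' deposited table. Plk1, a mitotic kinase, went the other way at 11.72, 11.79 and 9.29 on the CD34+ arrays and 9.39, 9.03 and 9.02 on the BM arrays, but marrow number 4 and BM overlapped (adjusted p = 0.0399). The cell cycle inhibitor Cdkn2b was 4.17-fold higher in CD34+ cells at 10.03, 9.88 and 10.31 on the CD34+ arrays and 8.43, 8.22 and 7.40 on the BM arrays (adjusted p = 0.00267), and Cdkn2a was higher by 1.27 ± 0.30 with 3 probes called the same way (adjusted p = 0.00548). Rb1, a brake on S phase entry, read 11.54, 11.45 and 11.64 on the CD34+ arrays and 13.08, 13.05 and 13.10 on the BM arrays, 2.90-fold lower by 2 probes (adjusted p = 2.8e-06). Ccnd1, the D-type cyclin, is outside the lists and was picked after its values were seen: it read 11.34, 11.19 and 9.15 on the CD34+ arrays and 6.01, 7.79 and 6.76 on the BM arrays (3.70 ± 0.63, adjusted p = 0.000679). With the repeat number as a block 13 replication genes were called higher and 11 lower, and 10 mitosis genes higher and 6 lower.

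Ribosomal and energy genes went both ways. Of 43 cytosolic ribosomal protein genes 12 were higher (27.9%, near the 21.9% of all genes) and 2 lower (4.65% against 19.1%). Rps6 read 14.90, 15.004 and 15.08 on the CD34+ arrays and 14.20, 14.19 and 14.18 on the BM arrays, 1.74-fold higher (adjusted p = 6.06e-05), and Rps13, Rpl34 and Rpl24 were 1.55, 1.55 and 1.62-fold higher. Median scaling, which lifts the median of all genes to 0.21, called 38 members higher and none lower, and the authors' deposited values gave 5 higher and 2 lower. Of 46 respiratory chain genes 11 were higher and 9 lower (23.9% and 19.6%), shares like those of all genes; 7 were higher without marrow number 2 repeat 1, and 27 under median scaling. Sdhd, an anchor subunit of succinate dehydrogenase, read 8.13, 8.32 and 8.30 on the CD34+ arrays and 10.26, 10.10 and 10.44 on the BM arrays, 4.04-fold lower (adjusted p = 2.46e-06). Atp5a1, a subunit of ATP synthase, was 7.56-fold lower by its brightest probe, while its other probe was higher by 1.31, both called. Of 27 glycolysis and hypoxia genes 8 were lower (29.6% against 19.1%) and 3 higher (11.1%); the lower ones were 5 without BM repeat 1 and 4 with the marrow as a random block. The glycolytic kinase Pgk1 read 11.996, 11.72 and 11.97 on the CD34+ arrays and 12.86, 12.94 and 12.81 on the BM arrays, 1.96-fold lower (adjusted p = 0.000521), Hif1a, the hypoxia factor, was lower by 1.34 ± 0.25 (adjusted p = 0.0014), and Pkm, the last enzyme of glycolysis, was 2.18-fold higher by 2 probes (adjusted p = 0.000998). Pgk1 was read by 1 probe.

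Stress genes were called in both directions. Of 21 p53 response genes 6 were higher (28.6% against 21.9% of all genes) and 1 lower (4.76% against 19.1%). With the mean over probes 7 were higher and 5 lower. The higher ones were 4 in the authors' table and 9 under median scaling. The members Cdkn1a, Mdm2, Ccng1 and Bbc3 were tested and not called. The death receptor Fas read 9.09, 9.18 and 9.13 on the CD34+ arrays and 7.42, 7.17 and 7.59 on the BM arrays, 3.35-fold higher (adjusted p = 0.000611), with 2 of its 3 probes called, and Tnfrsf10b, the TRAIL receptor, was 2.24-fold higher (adjusted p = 0.00125). Plk3, a stress-induced kinase, was 5.61-fold higher at 12.14, 11.76 and 11.04 on the CD34+ arrays and 9.59, 9.50 and 8.38 on the BM arrays (adjusted p = 0.0023). Of 30 ATF4 and amino acid genes 6 were higher (20.0%) and 4 lower (13.3%). Sesn2, an inhibitor of mTORC1, was 2.90-fold higher by 2 probes, whereas Atf4 itself read 13.03, 12.68 and 13.01 on the CD34+ arrays and 13.63, 13.98 and 13.92 on the BM arrays, 1.91-fold lower (adjusted p = 0.000794). Slc3a2, the heavy chain of amino acid exchangers, was 6.46-fold lower by 1 probe (adjusted p = 4.36e-05).

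Lysosome genes divided nearly evenly, with 15 higher and 13 lower of 47 (31.9% and 27.7%, against 21.9% and 19.1% of all genes); 5 were higher in the authors' table. Lamp1, a membrane glycoprotein of lysosomes, read 12.51, 12.49 and 12.48 on the CD34+ arrays and 11.72, 11.90 and 11.73 on the BM arrays, 1.64-fold higher by 1 probe (adjusted p = 0.000104). Neu1, the lysosomal sialidase, was 1.97-fold higher. Atp6v1a, a proton pump subunit, read 9.29, 8.96 and 9.66 on the CD34+ arrays and 10.97, 11.30 and 10.85 on the BM arrays, 3.34-fold lower (adjusted p = 2.29e-05). Lamp2 was lower by 0.96 ± 0.13 through its brightest probe, but its 5 other probes ranged from -1.46 to 0.77. Ctsk, the collagen-cutting cathepsin K, was undetected in CD34+ cells and read 5.66, 9.01 and 7.54 in BM, the order of the macrophage genes. Nrf2 targets stood at 8 higher and 8 lower of 24 (33.3% each way), with 5 higher without marrow number 2 repeat 1 and 4 with repeats averaged, the random block or the mean over probes. The enzyme catalase (Cat) read 9.37, 9.50 and 9.82 on the CD34+ arrays and 11.73, 11.70 and 11.77 on the BM arrays, 4.50-fold lower by 2 probes (adjusted p = 4.47e-05), and thioredoxin (Txn1) was 4.83-fold lower by 1 (adjusted p = 1.36e-05). In the granule exocytosis list 8 of 28 were higher (28.6%) and 4 lower (14.3%). The higher ones were 3 without marrow number 2 repeat 1, 4 without marrow number 4, BM repeat 1 or BM repeat 3, 5 without BM repeat 2, and 3 with repeats averaged or the random block; the lower ones were 2 without marrow number 2 repeat 1, BM repeat 1 or BM repeat 3. Probes of this list disagreed: Rab27b, which docks secretory granules, was higher by 1.68 ± 0.26 through its brightest probe and lower by 3.77 through the other. Rab27a, its relative, read 11.84, 11.83 and 11.54 on the CD34+ arrays and 11.13, 10.80 and 10.94 on the BM arrays by 1 probe and was 1.71-fold higher (adjusted p = 0.00128).

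Polycomb genes were examined because the strain was made to study Bcor, a member of the variant complex PRC1.1. Of 9 PRC1.1 genes 2 were higher and 2 lower, and of 17 genes of PRC2 and canonical PRC1 6 were higher (35.3% against 21.9% of all genes) and 2 lower (11.8% against 19.1%). In the second list 3 were higher on leaving out any 1 of the BM arrays and with the mean over probes, and 4 were lower without marrow number 4; in the first, 1 was higher without BM repeat 1 or either repeat of marrow number 2. Rnf2, the ubiquitin ligase of PRC1, read 5.76, 5.08 and 5.66 on the CD34+ arrays and 7.94, 7.66 and 8.02 on the BM arrays, lower in CD34+ cells by 1 probe, which was detected on 2 of those 3 arrays (adjusted p = 1.4e-05). Eed, a core subunit of PRC2, was 4.23-fold lower by its brightest probe and at 0.04 by the other. Ezh2, the methyltransferase of PRC2, was higher by 1.32 ± 0.29 through its brightest probe and lower by 0.90 through the other, both called.

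Among the largest differences outside the lists, several were all-or-none by a single probe. Higher in CD34+ cells was Cd59a, which shields cells from complement (47.0-fold, adjusted p = 4.29e-06). It read 13.05, 13.10 and 13.24 on the CD34+ arrays and 7.82, 7.63 and 7.28 on the BM arrays. The related gene Cd59b was 13.6-fold higher by 2 probes. Lrrc57, a leucine-rich repeat gene, read 10.46, 10.02 and 9.75 on the CD34+ arrays and 4.55, 4.65 and 4.71 on the BM arrays, at least 26.8-fold higher, and the pseudogene Gpr137b-ps was at least 26.8-fold higher. The activating receptor Cd244a read 10.60, 10.55 and 10.52 on the CD34+ arrays and 7.02, 7.16 and 5.87 on the BM arrays, 14.6-fold higher by 2 probes (adjusted p = 1.22e-05). Bach1, a haem-regulated repressor, was 13.2-fold higher by 1 probe (adjusted p = 5e-06), and the serine protease Prss12 at least 11.7-fold by 2. Cops8, a subunit of the COP9 signalosome, was 13.1-fold higher at 10.68, 10.47 and 10.79 on the CD34+ arrays and 7.06, 6.92 and 6.81 on the BM arrays, and the mitochondrial creatine kinase Ckmt1 was higher (adjusted p = 0.000504) and detected on 1 of the 3 BM arrays. Lower were Erdr1, at 4.71, 5.16 and 4.56 on the CD34+ arrays and 12.75, 13.03 and 12.25 on the BM arrays and at least 144-fold, the mitochondrial gene ND4L, detected on 1 of the 3 CD34+ arrays, at 5.23, 5.19 and 6.09 on the CD34+ arrays and 10.87, 11.03 and 10.75 on the BM arrays, and the orphan receptor Gpr176, 36.8-fold at 8.46, 8.51 and 8.88 on the CD34+ arrays and 13.92, 13.54 and 13.99 on the BM arrays (adjusted p = 7.75e-05). For the Erdr1 gene the second kept probe was at -2.78 and not called. Of all genes, 146 were detected on all 3 CD34+ arrays and on no BM array, and 368 the other way round; 64 and 196 of these had the same pattern with the Cre virus.

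The same population comparison with the Cre virus used other arrays, though of the same marrows number 2 and 4. There 29.0% of genes were higher and 19.8% lower in CD34+ cells. Both comparisons called 3022 genes, which is 79.1% of the control calls and 66.4% of the Cre calls, and 2988 of them had the same direction. The difference between the differences was called for 285 genes (3.05%), 168 of them positive. For neutrophil and eosinophil genes whose probes were undetected on the CD34+ arrays with both viruses, this test reads the BM arrays alone. Ngp was such a gene: BM cells read 6.65 ± 0.43 with the control virus and 12.86 ± 0.41 with Cre (mean ± SD, n = 3; adjusted p = 2.41e-06), and no CD34+ array detected it. Prg3 was another, at 6.64 ± 1.13 and 13.41 ± 0.16 in BM cells (adjusted p = 7.45e-05). Gpnmb and Pf4 did not pass the test (adjusted p = 0.993 and 0.947); BM cells read 11.48 ± 1.71 and 12.76 ± 0.08 for Gpnmb, and no CD34+ array detected Pf4. Arl11, an ADP-ribosylation factor-like GTPase, was higher in CD34+ cells by 4.33 with the control virus and by 0.09 with Cre (4.23 ± 0.35, adjusted p = 5.42e-05); BM cells read 7.11 ± 0.37 and 10.27 ± 0.07. Golm2, a Golgi membrane gene, was undetected on the CD34+ arrays with both viruses and read 8.48 ± 0.33 and 5.41 ± 0.10 in BM cells (adjusted p = 5.42e-05).

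**Figure D4:**
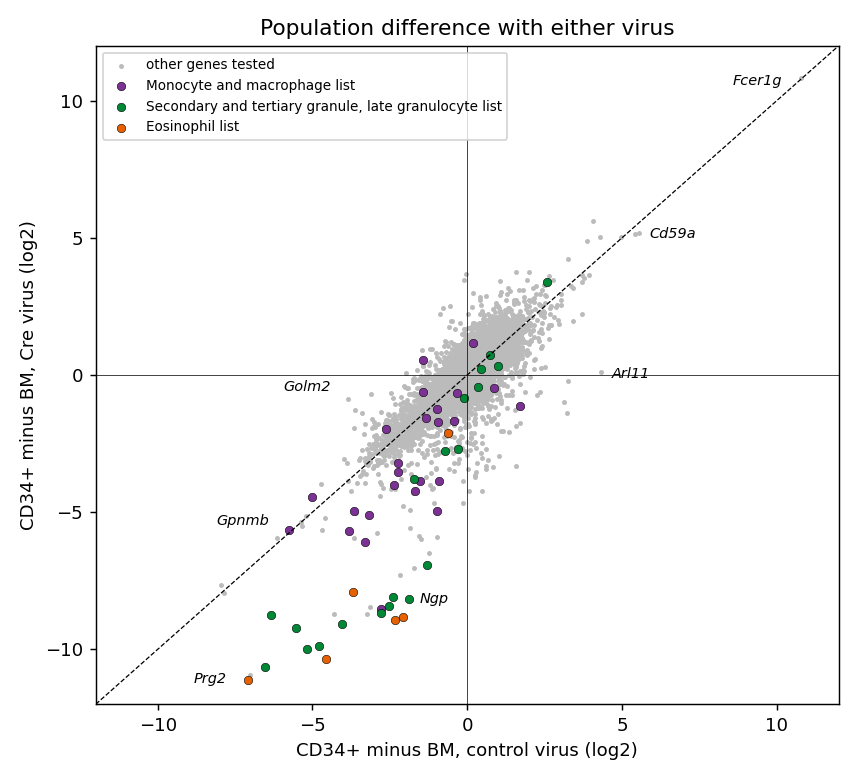
CD34+ minus BM (log2) with the control virus (horizontal axis) and with the Cre virus (vertical axis), a point per gene, with 3 lists coloured and the dashed line of equality. Many late granulocyte and eosinophil genes fall below the line; where a probe was undetected on the CD34+ arrays, the BM arrays set its place.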

How the data were processed

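Illumina BeadChip arrays of 45281 probes were read for 12 samples in 4 groups of 3, from the labels. The first table deposited by the authors gives each probe's intensity on each array, with its detection p-value, per the file headers. Some intensities are below 0, so a background had been subtracted, and arrays were not scaled to each other. A second deposited table by the authors holds a scaled intensity with a floor of 24 (64.1% of values) and serves as an alternative; how it was made is not given in the sources used here, and the submitters' processing notes name RMA with no version or role.

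The neqc function of limma 3.58.1 (R 4.3.3) was run on all 12 arrays of the first table: normexp correction by detection p-value, an offset of 16, quantile normalisation and log2. The filter asked for a detection p under 0.05 on at least 3 of the 6 control-virus arrays. A single symbol was given for 34885 probes through the platform annotation and RefSeq names, several for 18 and none for 10378; 2481 kept probes without one were left unnamed. Of the 9333 genes, 3635 had several kept probes. Group means were fitted with lmFit and eBayes (intensity trend, 8 residual and 3.63 prior degrees of freedom). Named genes were Cd34, Fcer1g, Prg2, Gpnmb and Bcor, the 12 largest called differences each way without overlap, from each list at most 4 called members, those of lowest p (or, with none called, the one of lowest p), and the 6 largest each way for the difference between viruses; other genes were chosen after their values were seen. The members and lists were chosen with earlier results of these data known, and lists were counted, not tested. The fitting script was tested on simulated data. Promoters come from RefSeq (GRCm38.p6). Alternatives were no background correction, median scaling, the authors' table, an offset of 50, no filter, the mean over probes and the 6 arrays alone. Further ones were averaged repeats, marrow as a random block, repeat number as a block, no trend and leaving out arrays. The random block joined the repeats of marrow number 2 with the same virus, not the control and Cre arrays of a marrow. The number of arrays limits the precision.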

Additional observations from a re-analysis of the deposited data

Results flagged for a closer look

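The population difference, CD34+ minus BM, was itself different with the control virus and with Cre for 35 of the named genes (limma, the difference of the differences, Benjamini-Hochberg over 9333 genes). Values here are the log2 difference with the control virus minus that with Cre. Among granulocyte and monocyte genes they were 6.29 for Ngp, 5.92 for Ltf, 5.87 for Pglyrp1, 5.09 for S100a9, 4.81 for Stfa1, 4.11 for S100a8, 3.71 for Chil3, 5.27 for Ms4a3, 3.00 for Itgb2 and 5.73 for Ly6c1 (adjusted p from 1.1e-07 to 0.0422). Among eosinophil genes they were 6.77 for Prg3, 6.61 for Epx, 5.77 for Ear6, 4.24 for Ear10, 4.01 for Prg2 and 3.92 for Ear3 (adjusted p from 7.45e-05 to 0.021). A positive value means that CD34+ cells stood lower relative to BM cells with Cre than with the control virus. For Prg2 the means were 11.71 ± 1.52 in BM control and 15.71 ± 0.08 in BM Cre, against 4.61 ± 0.07 and 4.61 ± 0.09 in CD34+ cells (SD, n = 3).

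Other positive values were 5.77 for Prss34, 4.23 for Arl11, 2.99 for Dusp2, 2.24 for Ctsg, 1.85 for Gfi1, 1.60 for Itgal, 1.53 for Lmo2, 1.38 for Rab27a and 0.86 for Neu1 (adjusted p from 5.42e-05 to 0.0367). Prss34 is a basophil protease, Ctsg and Gfi1 belong to neutrophil precursors, and Neu1 is the lysosomal sialidase. Negative values were -2.99 for Golm2, -2.41 for Fam155a, -2.38 for Gpm6a, -2.38 for Pkia, -2.35 for Albfm1, -2.33 for Pxdc1, -1.53 for Prss12, -1.22 for P4ha2, -1.15 for Tph1 and -0.91 for Ms4a2 (adjusted p from 5.42e-05 to 0.0481). The probes of Ngp, Ltf, Pglyrp1, S100a9, Stfa1, Prg2, Prg3, Epx, Ear3, Ear6, Ear10, Golm2 and Gpm6a were detected on no CD34+ array with either virus, so their values read the BM arrays alone, against a floor. S100a8, Chil3 and Ms4a3 were detected on no CD34+ control array, Ly6c1 and Itgb2 on no CD34+ Cre array, and Prss12 on no BM control array, so the sizes for these genes rest in part on a floor. The causes of these differences were not tested.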

How the results depend on the processing

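The counts of 2041 higher and 1779 lower genes ranged from 1548 to 2106 and from 1442 to 1812 on leaving out 1 of the 6 arrays. Averaging the repeats of marrow number 2 gave 1470 and 1476, and the marrow as a random block (correlation 0.860) 1389 and 1317. That block joined repeats of marrow number 2 with the same virus, so control and Cre arrays of a marrow stayed unpaired. The 6 control arrays alone gave 2377 and 1955, and the mean over probes 1963 and 1894. The share of calls that were higher was 53.4%, 63.3% under median scaling (2649 and 1535, with the median of all genes at 0.21) and 38.2% in the authors' table (981 and 1587). The 287 calls of list members became 177 in the authors' table, where the markers at 24 named in the text have no call, and where the 1 lower call of the eosinophil list (Il5ra) and the 1 of the late granulocyte list (Mxd1) are of genes not called here. No other processing setting moved these counts by over 1.5 times.

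The 285 genes with different population differences became 135 in the authors' table, 481 with no filter, 96 with repeats averaged, 118 with the random block, 159 to 341 on leaving out 1 control array, and 550 without the Cre array of marrow number 4, an alternative chosen after seeing the data. It was 159, 166, 177 and 176 without CD34+ control replicate 1 or 2, or BM control replicate 1 or 3. Repeat numbers 1 and 2 occur in both populations, but deviations from group means correlated at 0.177 for repeat 1 and -0.163 for repeat 2, so the numbers were not taken as pairs; with them as a replicate block 2585 genes were higher, 1969 lower, and 742 differed between viruses.

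Of 164 called named genes, 95 kept their call and direction under all 18 alternatives. Reversals were Tph1 under median scaling (0.57), and, in the authors' table, Gpnmb (0.87), Slpi (0.060), Ly6c1 (0.13) and Bcor (-0.089). With the mean over probes Socs4 (-0.82), Ddx21 (0.31), Rab27b (-1.04), Rab7 (0.42) and Bcor (-0.063) reversed. With the replicate block Cd34 (-0.11), Bcor (-0.044) and Fam155a (-0.031) did. Leaving out 1 array, Cd34 ranged from -0.0015 to 0.19 and Bcor from -0.061 to 0.11, never called. A slide block could not be run, since the headers name no slide.

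Signal near background limits what the values of dim probes can show.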
